A study of Canis lupus familiaris with 48 samples.

Results

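The chromosome 25 run is a stretch of 1823.7 kb on dog chromosome 25, from 7734450 to 9558144 in build CanFam3.1, in which most expressed genes had higher RNA levels after NaCl and after raffinose than in control medium. Its members are the genes annotated wholly inside that stretch with a mean of at least 1 CPM (counts per megaread) in any group. Of the 25 annotated genes in the stretch 11 met this rule, out of 32704 annotated genes in all. The stretch was chosen by its changes after NaCl and raffinose, so those changes are given as a description, and nothing is supported by whether they passed a test. The name holds for 9 of the 11 members, whose mean levels were higher after both solutes; the members at the left and right ends, ENSCAFG00000006383 and ENSCAFG00000006597, were lower after both. Of the higher members, ENSCAFG00000038124, ENSCAFG00000035216, ENSCAFG00000006579 and ENSCAFG00000037848 reached a mean of 1 CPM only after NaCl or raffinose. The rule could admit these only as higher, so their direction is no support for the name.

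The RNA came from MDCK I cells, an established line of canine kidney epithelial cells, grown for 144 h and sequenced as polyadenylated RNA with single reads. For the last 24 h, 3 groups had 200 mOsm of NaCl, raffinose or urea added to the medium (500 mOsm in total), and control cells stayed in regular medium (300 mOsm). Each group has 12 libraries, 1 from each of the same 12 cell passage numbers between 1 and 19. All groups are passages of 1 cell line, so the spread and the p-values are those between passages, and whether the 4 libraries of a passage came from a common culture is not stated. Depth, taken as the reads assigned to genes, ranged from 6.77 to 14.4 megareads (M) in NaCl libraries and from 6.6 to 16.2 M with raffinose. It ranged from 3.92 to 15 M with urea and from 6.08 to 16.1 M in control. In bulk RNA, a change in the number of cells that express a gene and a change in RNA per cell cannot be told apart.

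Cells of the kidney medulla live in fluid rich in NaCl and urea. NaCl and raffinose, a sugar that cells take up poorly, draw water out of cells, which shrink and then accumulate organic osmolytes through a programme driven in large part by the transcription factor NFAT5. Urea crosses membranes readily, so it raises osmolality without a lasting loss of water, and it stresses proteins in other ways. Genes that lie next to each other can share chromatin domains and enhancers, and such neighbours are often compared for that reason. The table names genes by Ensembl identifiers alone, none of which could be paired with a symbol, so the members are described by identifier, position and gene structure, and the identity of the cells was not checked against marker genes.

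From left to right the members and their annotated spans were as follows. ENSCAFG00000006383 (7734450 to 7797815, minus strand, 27 exons) opens the stretch and ENSCAFG00000025580 (7832887 to 8092263, minus strand) follows it with 75 exons, the most of any member. ENSCAFG00000038124 (8129601 to 8183935, minus strand, 4 exons) and ENSCAFG00000006508 (8460560 to 8461500, plus strand, 2 exons) come next; the span of ENSCAFG00000006508 is only 2 bases longer than its exons. ENSCAFG00000035216 (8688725 to 8806519, minus strand, 5 exons), ENSCAFG00000006522 (8817641 to 8938884, minus strand, 15 exons) and ENSCAFG00000006538 (8972958 to 9000762, plus strand, 35 exons) form the middle. ENSCAFG00000006579 (9181822 to 9200046, minus strand, 5 exons) and ENSCAFG00000037848 (9217305 to 9231067, minus strand, 7 exons) lie 17.3 kb apart. ENSCAFG00000006590 (9396400 to 9427363, minus strand, 8 exons) ends 3122 bases before ENSCAFG00000006597 (9430486 to 9558144, plus strand, 10 exons), which closes the stretch. In all, 8 members lie on the minus strand and 3 on the plus strand.

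**Figure D1:**
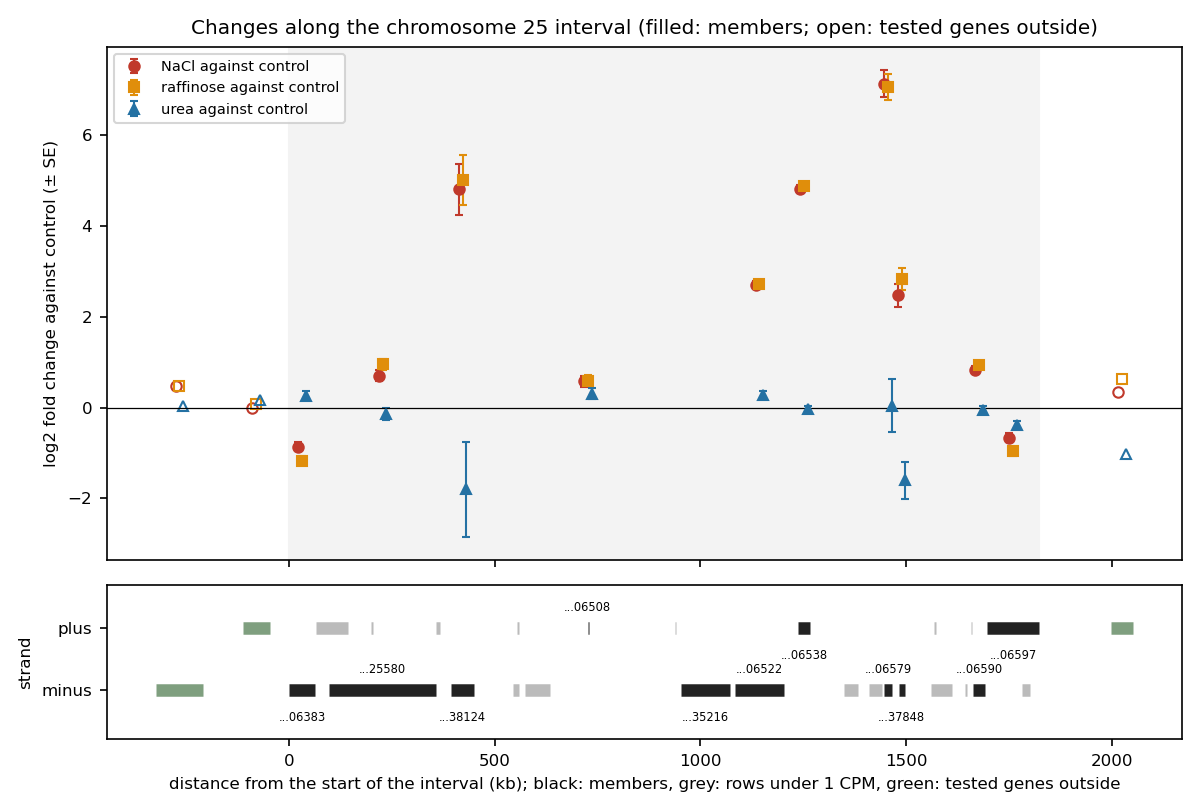
Upper panel: log2 fold change against control (points, with bars of 1 SE for members) for NaCl, raffinose and urea, against distance in kb from the left end of the stretch, which is shaded. Lower panel: gene spans by strand. NaCl and raffinose changes of 2.48 or more sit between genes with changes below 1, and the members at both ends are below 0; the urea point of ENSCAFG00000038124 is a fitted value from 0 urea reads and 4 control reads.

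The levels of the members differed widely along the stretch. Per kilobase of exons, the highest mean level after NaCl was 636 CPM per kilobase (RPKM) in ENSCAFG00000006538 and the lowest was 0.368 RPKM in ENSCAFG00000037848. The order began differently in control, where ENSCAFG00000006597 led with 136 ± 13 RPKM (SD, n = 12) and ENSCAFG00000006538 came next with 22.7 ± 3.3 RPKM. After NaCl ENSCAFG00000006538 stood above ENSCAFG00000006597, which had 85.4 ± 12 RPKM, and ENSCAFG00000006522 came after that with 38.3 ± 2.7 RPKM. Neighbours in the order were often within each other's spread: in control, ENSCAFG00000006590 at 6.46 ± 1.1 RPKM and ENSCAFG00000006522 at 5.89 ± 0.92 RPKM differed by less than 1 SD.

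**Figure D2:**
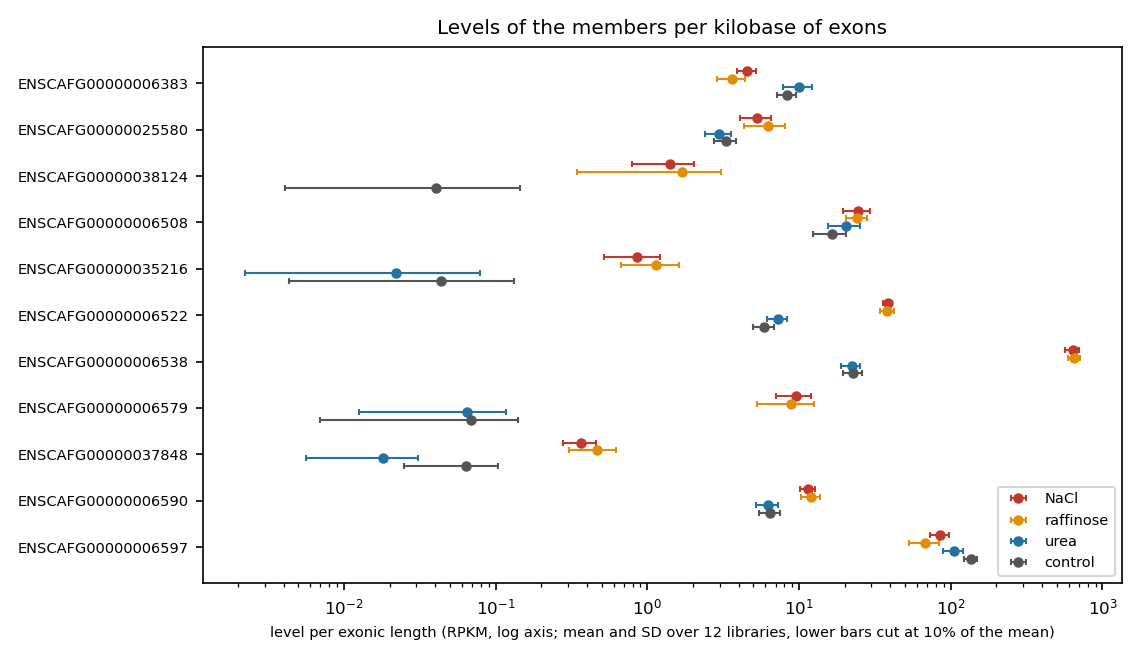
Mean level of each member in RPKM (log axis) with bars of 1 SD over 12 libraries, for NaCl, raffinose, urea and control from top to bottom within each gene; lower bars stop at 10% of the mean where they would reach 0. ENSCAFG00000038124 has no urea point because no urea library had a read. The NaCl and raffinose points of ENSCAFG00000006538, at 636 and 651 RPKM, stand highest of all.

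ENSCAFG00000006538 was the member with the most RNA after NaCl and raffinose. It had 2914 CPM in the lowest NaCl library, a median of 3669 and 4060 CPM in the highest. In raffinose libraries it ran from 3128 through a median of 3667 to 4314 CPM. Urea libraries held 92.0 to 158 CPM with a median of 122, and control libraries 95.6 to 160 CPM with a median of 130. No NaCl or raffinose library came near the urea and control libraries, which covered the same range. The means were 3587 ± 378 CPM after NaCl, 3672 ± 351 after raffinose and 128 ± 19 in control (SD, n = 12 each). The log2 fold changes against control were 4.82 ± 0.09 for NaCl and 4.88 ± 0.09 for raffinose (SE). Within a passage, the NaCl library had 21.1 to 35.6 times the control level (median 28.1) and the raffinose library 23.9 to 35.4 times (median 28.8). Among the 12654 tested genes of the table it ranked 12th by mean CPM after NaCl and 13th after raffinose, against rank 1653 in control.

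ENSCAFG00000006538 set most of the stretch's share of the library. All 11 members together took 0.399 ± 0.037% of counts after NaCl, 0.392 ± 0.034% after raffinose, 0.0692 ± 0.0078% after urea and 0.0820 ± 0.0073% in control. Of those reads, ENSCAFG00000006538 held 86.5% after NaCl, 88.2% after raffinose, 18.4% after urea and 16.7% in control. Without it the remaining members took 0.0535 ± 0.0049% after NaCl, 0.0468 ± 0.0061% after raffinose, 0.0563 ± 0.0062% after urea and 0.0682 ± 0.0059% in control. The summed share of the other 10 members was lower after NaCl, raffinose and urea than in control, although 8 of them had higher means after NaCl and raffinose. These shares are of raw counts, whereas the mean levels in CPM use scaled library totals. The most abundant of those 10, ENSCAFG00000006597, was among the members that were lower.

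The nearest expressed neighbour, ENSCAFG00000006522, ends 34.1 kb to the left of ENSCAFG00000006538, on the other strand. Its level was 55.9 to 71.9 CPM after NaCl (median 65.2) and 56.2 to 81.4 CPM after raffinose (median 62.9). It was 8.65 to 14.4 CPM after urea (median 12.0) and 7.73 to 12.9 CPM in control (median 9.73). Every NaCl and raffinose library stood above every urea and control library. The log2 fold changes against control were 2.71 ± 0.08 for NaCl and 2.73 ± 0.08 for raffinose, and its libraries agreed closely: the SD was 7.11% of the mean after NaCl, 10.6% after raffinose and 15.6% in control.

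ENSCAFG00000006579 had the largest fold change of the stretch, since it was close to silent without NaCl or raffinose. It had 16.1 to 37.6 CPM after NaCl (median 23.4) and 11.0 to 42.1 CPM after raffinose (median 21.8). Urea libraries had 0 to 0.384 CPM and control libraries 0 to 0.653 CPM, with 22 and 23 reads over all 12 libraries of each group, against 3376 reads after NaCl and 2746 after raffinose. The ranges after NaCl and raffinose overlapped widely, and none of their libraries reached down to urea or control. The log2 fold changes were 7.14 ± 0.29 for NaCl and 7.07 ± 0.29 for raffinose, rank 11 and rank 20 from the top among all tested genes. The means were 24.9 ± 6.4 CPM after NaCl, 23.2 ± 9.4 after raffinose, 0.169 ± 0.14 after urea and 0.181 ± 0.18 in control. Because 3 of 12 control libraries had no read, its control level is near the limit of these depths, at which 3 reads correspond to 0.186 CPM in the deepest library and 0.766 CPM in the shallowest; such limits cover counting error only.

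Beside it, ENSCAFG00000037848 had lower levels, again highest after NaCl and raffinose. It had 0.907 to 2.44 CPM after NaCl (median 1.77), 1.03 to 3.36 CPM after raffinose (median 2.30), 0 to 0.169 CPM after urea (median 0.0979) and 0 to 0.674 CPM in control (median 0.320). NaCl and raffinose libraries all stood above the highest control library, and urea libraries lay in the lower part of the control range. The log2 fold changes against control were 2.48 ± 0.25 for NaCl and 2.83 ± 0.24 for raffinose. These rest on 232 NaCl reads, 255 raffinose reads and 43 control reads.

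A pair of sparse members were almost without reads outside NaCl and raffinose. ENSCAFG00000038124 had 0.397 to 1.88 CPM after NaCl (median 1.12) and 0.284 to 3.61 CPM after raffinose (median 0.836). It had no read in any urea library, and in control 4 reads in 2 libraries, 3 of them at passage 16. The lowest raffinose library also had 3 reads, so it stood above that control library (0.284 against 0.272 CPM) only through scaling. Its log2 fold changes were 4.81 ± 0.56 for NaCl and 5.02 ± 0.56 for raffinose. With passage 16 left out of every group they were 5.93 and 6.13, so their size depends on that passage. Set against 3 reads over the urea group, its pooled level was at least 45.4-fold higher after NaCl and at least 47.5-fold higher after raffinose. After raffinose its SD was 79.7% of the mean, with the highest libraries at passages 1 and 8 (3.61 and 3.26 CPM), the passages that were also highest after NaCl (1.79 and 1.88 CPM).

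ENSCAFG00000035216 had 0.313 to 1.52 CPM after NaCl (median 0.836) and 0.686 to 2.02 CPM after raffinose (median 0.955). Its reads numbered 115 after NaCl, 136 after raffinose, 4 after urea and 7 in control, and no urea or control library reached the lowest NaCl library. That NaCl library had only 4 reads (0.313 CPM), and the highest control library had 3 (0.289 CPM). It became a member through its raffinose mean of 1.19 CPM, since its NaCl mean was 0.893 CPM, and it was too sparse to enter the fit between groups. The pooled level after NaCl was 15.4 times that in control (95% counting interval 7.23 to 39.1), and after raffinose 20.1 times (9.49 to 50.9).

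A milder group had higher levels after both solutes by less than 2-fold. ENSCAFG00000025580 had 35.5 to 72.6 CPM after NaCl (median 46.7), 37.6 to 102.0 CPM after raffinose (median 56.5), 23.03 to 42.5 CPM after urea (median 26.2) and 22.2 to 38.7 CPM in control (median 31.1). The NaCl and raffinose ranges overlapped control, with 10 of 12 NaCl libraries and 11 of 12 raffinose libraries above the highest control library. Its log2 fold changes were 0.71 ± 0.12 for NaCl and 0.95 ± 0.13 for raffinose. Its exons share 156 bases with ENSCAFG00000031981 on the plus strand. Reads were counted without regard to strand, so the counts cannot assign reads in that overlap to either gene.

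ENSCAFG00000006590 had 43.4 to 61.1 CPM after NaCl (median 53.7), 44.2 to 74.4 CPM after raffinose (median 54.5), 21.3 to 37.7 CPM after urea (median 28.4) and 21.4 to 38.8 CPM in control (median 29.3). No NaCl or raffinose library overlapped urea or control. The log2 fold changes were 0.84 ± 0.09 for NaCl and 0.93 ± 0.09 for raffinose. ENSCAFG00000006508 had the smallest increase, with means of 22.9 ± 4.5 CPM after NaCl, 22.7 ± 3.5 after raffinose, 19.1 ± 4.5 after urea and 15.4 ± 3.7 in control, with 9 of 12 NaCl libraries and 7 of 12 raffinose libraries above the highest control library. Its log2 fold changes were 0.58 ± 0.12 for NaCl and 0.59 ± 0.12 for raffinose.

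The end members went the other way. ENSCAFG00000006383 had 38.6 to 62.9 CPM after NaCl (median 51.2) and 30.7 to 58.0 CPM after raffinose (median 37.7), against 80.4 to 119 CPM in control (median 92.0). All NaCl and raffinose libraries lay below the lowest control library. Its log2 fold changes were -0.86 ± 0.10 for NaCl and -1.17 ± 0.10 for raffinose. ENSCAFG00000006597 had 232 to 352 CPM after NaCl (median 295) and 151 to 300.5 CPM after raffinose (median 217), against 391 to 543 CPM in control (median 447). Its log2 fold changes were -0.66 ± 0.09 and -0.96 ± 0.09, and here too no library after either solute reached the control range.

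**Figure D3:**
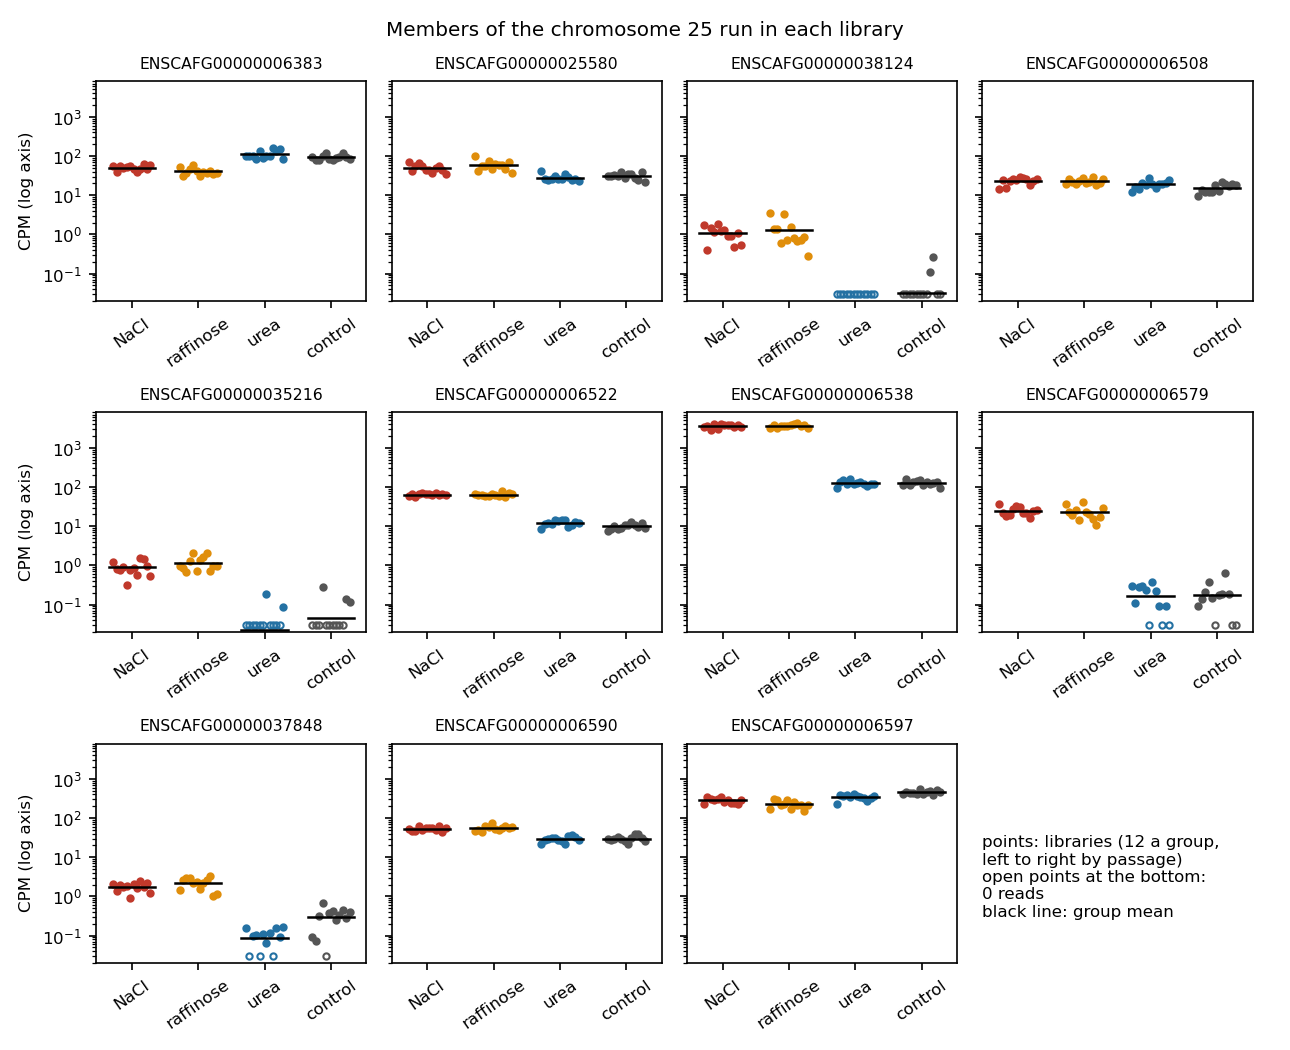
CPM of each member (log axis) in every library, with 12 points a group for NaCl, raffinose, urea and control, left to right by passage within a group; open points at the bottom are libraries with 0 reads and black lines are group means. Groups of points for NaCl and raffinose do not overlap control in 9 of the 11 members, above it in 7 and below it in 2. In ENSCAFG00000038124 and ENSCAFG00000035216 the nearest libraries differ by little: 3 reads (raffinose) against 3 (control), and 4 (NaCl) against 3 (control).

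The member changes after NaCl and raffinose fell into separate ranges of size. Of the 10 members that passed the filter on low counts, none had a log2 fold change between 0.84 and 2.48 after NaCl or between 0.95 and 2.73 after raffinose. All 10 had an adjusted p under 0.05 from edgeR for NaCl, 8 higher and 2 lower, and likewise for raffinose, while of all tested genes 70.7% were called for NaCl (34.6% higher, 36.1% lower) and 74.9% for raffinose (36.7% higher, 38.2% lower). Since the stretch was chosen on these contrasts, nothing is read from those counts. Over all 11 members, including ENSCAFG00000035216, which was not tested, the groups did not overlap in 7 that were higher and 2 that were lower after each solute. Of all tested genes 12.8% were higher and 11.3% lower without overlap for NaCl, and 13.3% and 14% for raffinose. Nothing is read from these counts either. The median log2 fold change of the members was 1.66 for NaCl and 1.84 for raffinose, and that of all tested genes -0.02 for each. These medians depend on which sparse members are tested: without passage 1, 5, 8 or 11, where ENSCAFG00000038124 leaves the fit, they were as low as 0.79 for NaCl and 0.95 for raffinose, and with no filter on low counts they were 2.46 and 2.69. Set against urea instead, 8 members were again higher and 2 lower after NaCl (35.7% and 36.9% of all genes) and after raffinose (37.6% and 38.4%); these contrasts share the NaCl and raffinose libraries with those above.

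The rule for the stretch names no urea value, but urea against control uses the same control libraries, and its result was known when the run was named for NaCl and raffinose. The count of members called is therefore a description. Urea changed 5 of 10 tested members, with adjusted p under 0.05 in edgeR's quasi-likelihood test, where 52.3% of all tested genes were called (27.4% higher, 24.9% lower). Of these, 3 rose and 2 fell, the changes were small apart from that of ENSCAFG00000037848, and in all 11 members the urea and control libraries overlapped (9.03% of all tested genes did not). The median log2 fold change of the tested members was -0.04, against 0.02 for all tested genes.

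The members that rose with urea were ENSCAFG00000006522, ENSCAFG00000006508 and ENSCAFG00000006383. ENSCAFG00000006522 had 12.1 ± 1.9 CPM after urea and 9.89 ± 1.5 in control, a log2 fold change of 0.28 ± 0.08 (edgeR adjusted p = 0.00255), and was higher in 11 of 12 same-passage pairs. ENSCAFG00000006508 rose by 0.30 ± 0.12 on the log2 scale (edgeR adjusted p = 0.0342), also in 11 of 12 pairs. ENSCAFG00000006383, which was lower after NaCl and raffinose, had 112 ± 24 CPM after urea and 93.3 ± 13 in control, a rise of 0.26 ± 0.10 (edgeR adjusted p = 0.0253; 11 of 12 pairs). With libraries scaled by their totals only, ENSCAFG00000006383 (0.19, edgeR adjusted p = 0.119; 0.00414 to 0.119 over 20 alternatives) and ENSCAFG00000006508 (0.23, edgeR adjusted p = 0.136; 0.00401 to 0.136) no longer passed. Leaving out passage 14 or 17 also ended the call for the first, and leaving out 6 of the 12 passages in turn that for the second.

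The members that fell with urea were ENSCAFG00000006597 and ENSCAFG00000037848. ENSCAFG00000006597 had 234 to 423 CPM after urea (median 360), below 391 to 543 CPM in control in 12 of 12 same-passage pairs, with a log2 fold change of -0.38 ± 0.09 (edgeR adjusted p = 0.000646). Its mean was below control with all 3 solutes. ENSCAFG00000037848 had a log2 fold change of -1.60 ± 0.40 (edgeR adjusted p = 0.000685), with 12 reads over all urea libraries and 43 over all control libraries, and was lower in 10 of 12 pairs and higher in 1. Its direction after urea was opposite to that after NaCl and raffinose.

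The steepest members did not pass for urea. For ENSCAFG00000006538 the log2 fold change after urea was -0.03 (95% interval -0.19 to 0.12, edgeR adjusted p = 0.756). For ENSCAFG00000006579 it was 0.05 with an interval of -1.14 to 1.23 (edgeR adjusted p = 0.955), which spans more than 2-fold either way. ENSCAFG00000038124, at 0 reads after urea and 4 in control, had too few reads to show a difference (edgeR adjusted p = 0.150). ENSCAFG00000025580 (-0.14, interval -0.40 to 0.11) and ENSCAFG00000006590 (-0.05, interval -0.23 to 0.12) did not pass either.

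**Figure D4:**
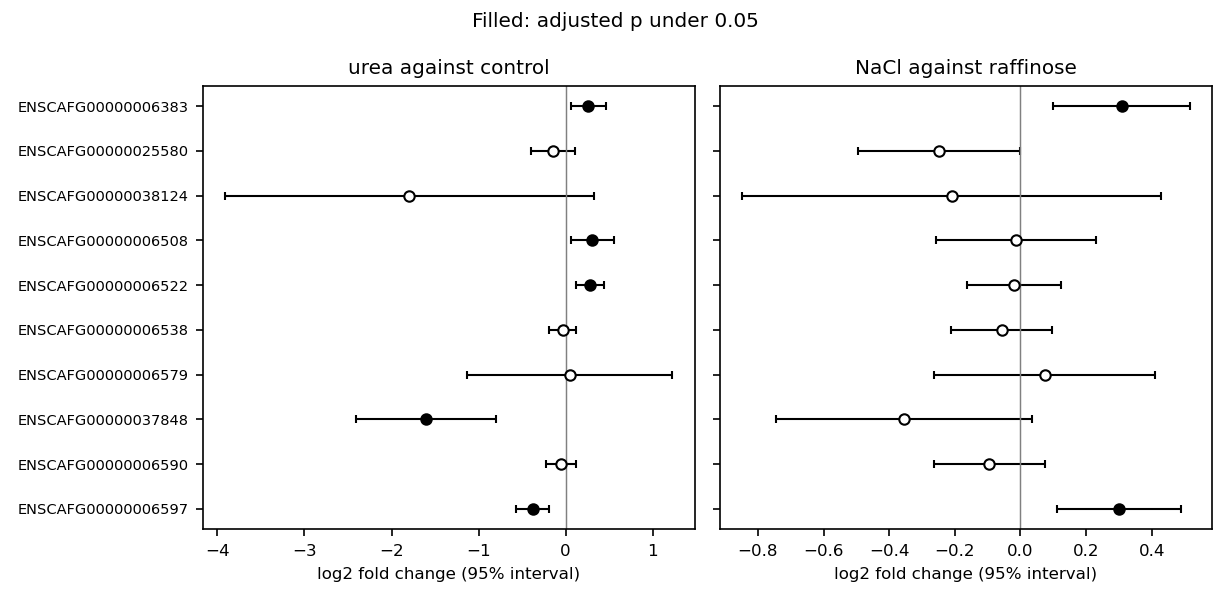
Log2 fold changes with 95% intervals for the 10 tested members, urea against control on the left and NaCl against raffinose on the right; filled points have an adjusted p under 0.05. On the left 5 points are filled, 3 above 0 and 2 below; on the right the 2 filled points are the members at the ends of the stretch, both above 0.

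NaCl and raffinose were compared directly at equal osmolality. In edgeR's test 2 of 10 tested members differed, both higher after NaCl, where 15.4% of all tested genes were called (7.42% higher, 7.97% lower); the groups overlapped in all 11 members, and did not in 0.3% of all tested genes. The members that differed were the end genes, which were lower after both solutes than in control and lower after raffinose than after NaCl. ENSCAFG00000006597 had 283 ± 41 CPM after NaCl and 226 ± 50 after raffinose, a log2 fold change of 0.30 ± 0.09 (edgeR adjusted p = 0.0220), higher after NaCl in 12 of 12 pairs. ENSCAFG00000006383 had 50.9 ± 7.4 CPM after NaCl and 40.5 ± 8.3 after raffinose, a log2 fold change of 0.31 ± 0.10 (edgeR adjusted p = 0.0342), higher in 11 of 12 pairs. Leaving out passage 11 ended both calls (edgeR adjusted p = 0.0531 for ENSCAFG00000006597, of a range of 0.000408 to 0.0531 over 20 alternatives, and 0.0766 for ENSCAFG00000006383, of a range of 0.00332 to 0.0787).

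Among the members with higher means after both solutes, the intervals bound the difference between NaCl and raffinose closely in the abundant genes. For ENSCAFG00000006538 the log2 fold change of NaCl against raffinose was -0.06 (95% interval -0.21 to 0.10) and for ENSCAFG00000006522 -0.02 (-0.16 to 0.12). ENSCAFG00000006508 differed by -0.01 (-0.26 to 0.23), ENSCAFG00000006590 by -0.10 (-0.26 to 0.07) and ENSCAFG00000006579 by 0.07 (-0.26 to 0.41). ENSCAFG00000025580, at -0.25 (-0.50 to 0.00, edgeR adjusted p = 0.167), passed when passage was a replicate block (-0.22, edgeR adjusted p = 0.0426; 0.0426 to 0.306 over 20 alternatives), lower after NaCl in 8 of 12 pairs. The sparse ENSCAFG00000037848 and ENSCAFG00000038124 had wide intervals, -0.75 to 0.04 and -0.85 to 0.43. ENSCAFG00000035216, which was not in the fit, had a pooled level after NaCl of 0.765 times that after raffinose, with a 95% interval of 0.592 to 0.988 that covers counting error and not the spread between passages.

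Passage was tested as a linear trend. When each passage was taken as the sum of its 4 libraries, edgeR called 0 of 10 tested members for a linear trend. Of the 13150 genes tested on these sums 0.0532% were called. The sums admitted ENSCAFG00000035216 and not ENSCAFG00000038124, so these 10 members are not the 10 tested between groups. In edgeR 2 of them had an unadjusted p under 0.05. All genes were not counted at that threshold, so nothing is read from that count. DESeq2 also called 0 members. Taking the 48 libraries as separate samples called 3 members and 2048 of all tested genes, but libraries of a passage share that passage. The 2 at an unadjusted p under 0.05 with summed counts were ENSCAFG00000025580, with -0.30 ± 0.11 log2 units per 10 passages (edgeR adjusted p = 0.291), and ENSCAFG00000006508, with 0.25 ± 0.10 (edgeR adjusted p = 0.344). ENSCAFG00000025580 was lowest at passage 19 in all 4 groups and highest at passage 1 after NaCl, raffinose and urea. ENSCAFG00000006508 was lowest at passage 1 after NaCl and urea and in control, and at passage 16 after raffinose. Without passages 1 and 19, edgeR called 0 members for the trend (lowest edgeR adjusted p = 0.558) and 3 of all tested genes. In edgeR, a separate term for how each solute's change varied with passage called 0 of 10 members for any solute. It called 0% of all genes, and DESeq2 called 0 members. At an unadjusted p under 0.05 in edgeR there were 0 members for NaCl, 2 for raffinose and 0 for urea. All genes were not counted at that threshold here either, so nothing is read from these counts.

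The 14 genes of the stretch under 1 CPM had few reads, 12 of them any read at all. Nearest below the threshold was ENSCAFG00000035937, with 0.483 CPM after NaCl, 0.634 after raffinose, 0.120 after urea and 0.153 in control. ENSCAFG00000035432 came next, with 0.288 CPM after NaCl, 0.159 after raffinose, 0.226 after urea and 0.555 in control, so it was highest in control. Just inside the threshold were ENSCAFG00000035216, at 1.19 CPM after raffinose, and ENSCAFG00000038124, at 1.32 CPM. Of the 14, 9 had more raw reads after NaCl and raffinose together than in urea and control together, 3 had fewer and 2 had none. Some of these differ by only a few reads, and genes this low elsewhere were not counted. Nothing is read from these directions.

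Beyond the ends of the stretch the nearest changes after NaCl and raffinose were smaller than in its middle. The nearest tested gene on the left, ENSCAFG00000006376 (7622024 to 7687851, 46.6 kb away), had log2 fold changes of 0.00 for NaCl and 0.07 for raffinose. On the right the nearest tested gene, ENSCAFG00000006616 (9732187 to 9786535, 174 kb away), had 0.34 for NaCl, 0.64 for raffinose and -1.02 for urea. Its raffinose change was above the 0.59 of the member ENSCAFG00000006508. The 10 tested genes before the stretch had a median log2 fold change of 0.13 for NaCl, with 4 higher and 2 lower by the test, and of 0.03 for raffinose, with 3 higher and 3 lower. The highest of these 10 had 1.36 for NaCl and 1.58 for raffinose, above the members that were higher by less than 2-fold. The 10 after it had -0.10 for NaCl, with 4 higher and 4 lower, and -0.03 for raffinose, with 4 higher and 1 lower. Of all tested genes 34.6% were higher and 36.1% lower for NaCl, and 36.7% and 38.2% for raffinose. Over the other 227 tested genes of chromosome 25 the median was -0.07 for NaCl and -0.15 for raffinose.

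Genes on other chromosomes had profiles as like those of the steep members as the members had among themselves. Over the 48 libraries, the log2 CPM of ENSCAFG00000006538 and ENSCAFG00000006522 correlated at r = 0.989 and that of ENSCAFG00000006538 and ENSCAFG00000006579 at r = 0.983. Outside the stretch, the genes most like ENSCAFG00000006538 were ENSCAFG00000003101 on chromosome 12 (48542432 to 48562586, r = 0.991) and ENSCAFG00000000969 on chromosome 1 (61776530 to 61810619, r = 0.990), among 800 genes with r over 0.9. Those most like ENSCAFG00000006579 were ENSCAFG00000016208 on chromosome 3 (74077121 to 74316957, r = 0.984) and ENSCAFG00000012667 on chromosome 36 (15970943 to 15997705, r = 0.982). For the sparse ENSCAFG00000038124 they were ENSCAFG00000040278 on chromosome 1 (35105549 to 35173882, r = 0.947) and ENSCAFG00000005689 on chromosome 9 (1388533 to 1398172, r = 0.936). These correlations describe libraries that share groups, so they mostly follow the difference between group means, and they carry no test.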

How the data were processed

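RNA of 48 MDCK I libraries was measured by sequencing. The deposited values are raw counts of reads, 1 column a library, from the authors' counting; per the submitters' processing notes, CASAVA, HISAT2 2.0.5 and featureCounts 1.5.1 were used. Exons of Ensembl release 87 (CanFam3.1) were counted without regard to strand, per the file headers, and the recorded command sets nothing for multi-mapping or multi-overlapping reads. All coordinates are those of that table, and 0 of 32704 identifiers could be paired with a symbol, so the prepared lists of tonicity, urea and cell marker genes were not applied.

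The test was edgeR 4.0.16 (R 4.3.3): filterByExpr (minimum count 10, 12654 genes), TMM factors, glmQLFit over 48 libraries with a term for the group, and glmQLFTest with Benjamini-Hochberg adjustment over all tested genes at 0.05. CPM uses TMM-scaled totals, and RPKM divides CPM by exonic kilobases. Correlations use log2 CPM with a prior count of 2. Passage was tested as a linear term on the 12 sums of the 4 libraries that share a passage, and its product with each solute over 48 libraries. Ratios of pooled counts have exact 95% intervals. Passage numbers pair libraries across groups by their labels: after group means were removed, the mean correlation was 0.306 over 72 pairs of equal passage and -0.0276 over 792 others.

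All members are named; the others named are the 2 highest genes under 1 CPM, the nearest tested gene on each side, and the 2 genes most like each of the 3 members with the largest changes. Outside that rule, ENSCAFG00000031981 is named for its exon overlap, and ENSCAFG00000033077, ENSCAFG00000006571 and ENSCAFG00000006501 were chosen after their values were seen. The members, lists and tests were chosen with earlier results of these data known. Alternatives were RLE factors, library totals only, no filter, DESeq2 1.42.0, passage as a replicate block, only the groups compared, each passage left out, and fits without the shallowest library. On simulated counts for urea against control, 38% of changes of 1.25-fold, 66% of 1.5-fold and 100% of 2-fold were recovered. For NaCl against raffinose these shares were 24%, 72% and 94%. For a trend per 10 passages they were 72%, 92% and 100%, and for NaCl by passage 6%, 32% and 70%. Simulated libraries were drawn independently, whereas measured libraries of equal passage shared part of their spread (mean correlation 0.306). The shares for the trend can therefore be higher than the test reaches on these data.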

Additional observations from a re-analysis of the deposited data

How the results depend on the processing

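No called result changed direction under the alternatives run. Urea against control called 5 members, 3 with library totals only, 3 of 7 tested with only these groups in the fit, and 4 to 5 with each passage left out. In the same order it called 6620, 6462 and 6414 of all tested genes, and 6216 to 6525 with each passage left out. ENSCAFG00000006522, ENSCAFG00000037848 and ENSCAFG00000006597 passed in 12 of 12 such fits. With library totals only, the all-gene median log2 fold change against control was -0.19 for NaCl, -0.25 for raffinose and -0.05 for urea. For raffinose, some members then moved by more than the SD of their same-passage differences. ENSCAFG00000006538 went from 4.88 to 4.65, ENSCAFG00000006522 from 2.73 to 2.50 and ENSCAFG00000006383 from -1.17 to -1.39. The SE of a member's change does not cover this choice of scaling. ENSCAFG00000006508 was lost for urea with no filter on low counts (edgeR adjusted p = 0.0527) and with only these groups (0.0620, of a range of 0.00401 to 0.136). NaCl against raffinose called 2 members and 0 to 2 with each passage left out: ENSCAFG00000006597 passed in 9 of 12 fits and ENSCAFG00000006383 in 6 of 12. Of all tested genes that contrast called 1948, and 1529 to 1881 with each passage left out. With passage as a replicate block 5 members were called for urea against control and 3 for NaCl against raffinose, ENSCAFG00000025580 being added, and no other member call changed. The block raised the calls over all tested genes too. These went from 6620 to 7719 for urea against control and from 1948 to 3595 for NaCl against raffinose. For the passage trend, 48 libraries with group and linear passage terms called 3 members in place of 0, but libraries of a passage are not independent. That fit called 2048 of all tested genes in place of 7.

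The median log2 fold change of the tested members depends on which sparse members are tested, because none lies between the mild and the steep ones. The 4 medians, in the order NaCl against control, raffinose against control, NaCl against urea and raffinose against urea, were 1.66, 1.84, 1.66 and 1.77. They were 2.46, 2.69, 2.41 and 2.41 with no filter and 2.53, 2.75, 2.45 and 2.47 with DESeq2 (11 members tested), and 0.79, 0.95, 0.87 and 1.05 with only the groups compared (8 tested). Leaving out each passage gave 0.79 to 1.73, 0.95 to 1.88, 0.87 to 1.68 and 1.07 to 1.81, and library totals only gave 1.61 for raffinose against urea. The number of members was 11 with plain library totals, 14 at 0.5 CPM and 9 at 2 CPM. Without the control library of passage 4 and the urea library of passage 5, left out together as an alternative chosen after seeing the data, 5 members were called for urea against control and 2 for NaCl against raffinose. Of all tested genes 6463 and 1918 were called. Depth limits ENSCAFG00000038124, ENSCAFG00000035216, ENSCAFG00000006579 and ENSCAFG00000037848, which had 0 to 43 reads over all 12 libraries after urea or in control.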

Other observations

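Among the genes of the stretch under 1 CPM, a pair between ENSCAFG00000006538 and ENSCAFG00000006579 had nearly all of their reads after NaCl and raffinose; they were singled out after their values were seen. ENSCAFG00000033077 (9082622 to 9117989, minus strand, 8 exons) had 30 reads after NaCl, 35 after raffinose, 2 after urea and 0 in control. Set against 3 reads over the control group, its pooled level was at least 9.36-fold higher after NaCl and at least 12.1-fold higher after raffinose. ENSCAFG00000006571 (9145011 to 9176762, minus strand, 7 exons) had 33 reads after NaCl, 16 after raffinose, 0 after urea and 1 in control. ENSCAFG00000006501 (8307850 to 8368480, minus strand, 22 exons), further left and also chosen after its values were seen, had 0 reads after NaCl, raffinose and urea and 2 in control.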
